A study of Mus musculus with 16 samples.

Results

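Promoter capture Hi-C pairs of mouse liver collected at ZT6 and at ZT12 were compared, an interval that covers the later part of the light phase and ends when the lights go off. ZT counts hours from lights on. All livers came from male wild-type C57BL/6 mice labelled as 8 weeks old, which the methods give as the age before 2 weeks of equal 12 h phases of light and darkness. They were fed without restriction, and the time of collection is the only difference between the groups that the labels give. Each timepoint also has its own animals and libraries. The 8 ZT6 and ZT12 samples, of 16 in the series, were 3 pools of 2 livers per timepoint with 1 pool sequenced on 2 lanes, and the pools of a timepoint were merged into 1 list of scored fragment pairs. The ZT6 list held 154775 pairs and the ZT12 list 151529, together 199396 different pairs of the 247177 in the 4 lists of the series (ZT0 146262, ZT18 151347). Because each timepoint is 1 list, differences between timepoints have no replicate check, no p-value is given, and intervals on shares are 95% Wilson intervals that cover counting error only; pairs that share a promoter are not independent, so even these are too narrow. A summary table with the study sets list totals beside other timepoints than the labels do; the labels were followed, and a reading in which the ZT12 and ZT18 lists stand for ZT6 and ZT12 is given among the alternatives at the end.

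In this assay chromatin is fixed in the nucleus, cut with HindIII, ligated, and enriched with probes for fragments that carry promoters, so that each sequenced pair reports a promoter fragment (the bait) and a fragment that lay near it. Promoters contact other promoters and distal elements such as enhancers, and a promoter can also contact fragments along the gene it starts. The CHiCAGO score ranks a pair by how far its reads exceed those expected for its distance and its fragments, and the lists hold pairs of score 5 or more, so a pair that is not listed may still have had reads. In the liver, the transcription factor pair CLOCK and BMAL1 binds E-boxes of clock and metabolic genes by day, the Period and Cryptochrome proteins repress it later, and in nocturnal rodents circulating corticosterone peaks around lights off and acts through the glucocorticoid receptor. Below, a pair in both lists is called kept, a pair in the ZT6 list only is called lost, and a pair in the ZT12 list only is called gained.

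The 4 promoters printed here gained contacts and are shown first by the E-box, CACGTG on either strand, in the 300 bases before their start. They are among the clock, glucocorticoid and cytokine receptor genes described below. They were chosen after their contacts were seen, and other gained genes named there, such as Per2 and Klf15, are not printed. All 4 hold the motif, so they are no sample of the promoters that gained. Each stretch is printed 5′ to 3′ on the strand of the gene, from the mm9 build, with the E-box in capitals. The Fkbp5 stretch lies outside its bait fragment, which ends at position 28654609, so its E-box was not on the fragment whose contacts were counted. The other stretches lie on their baits.
Per1 (chr11:68908509-68908634, plus strand): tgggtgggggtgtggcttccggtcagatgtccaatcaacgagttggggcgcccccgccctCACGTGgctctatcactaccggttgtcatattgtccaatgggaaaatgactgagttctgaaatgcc
Fkbp5 (chr17:28654697-28654769, minus strand): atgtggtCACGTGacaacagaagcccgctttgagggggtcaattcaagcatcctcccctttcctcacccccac
Dusp1 (chr17:26645478-26645603, minus strand): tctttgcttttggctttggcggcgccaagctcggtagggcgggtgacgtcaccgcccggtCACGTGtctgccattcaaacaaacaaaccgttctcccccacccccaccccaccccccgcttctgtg
Il6ra (chr3:89717085-89717202, minus strand): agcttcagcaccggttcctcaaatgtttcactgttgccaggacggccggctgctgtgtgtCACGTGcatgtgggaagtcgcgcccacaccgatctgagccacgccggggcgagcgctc
Over all protein-coding genes that start on a bait, 8.12% (7.72 to 8.54) held this motif in the same window, against 9.25% (7.31 to 11.6; 64 of 692) of genes on baits that gained contacts and 6.53% (4.83 to 8.76; 40 of 613) on baits that lost them. These shares overlap in their intervals, and the motif is a description of the letters, not of binding.

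Fragments inside Fkbp5 are shown next, because this gene gained most of its contacts there. Of the 16 fragments that its promoter contacted at ZT12 and not at ZT6, 2 held a palindromic glucocorticoid element, searched as AGAACA, any 3 bases, TGTTCT on either strand, and of the 9 kept or lost fragments none did. The element was on 77 of 95991 (0.0802%) non-promoter fragments contacted at either timepoint, and on 0.133% of those 3000 to 12000 bases long, a range that holds both fragments. Both elements lie in introns of Fkbp5 and are printed on the plus strand of mm9 with 60 bases on each side and the element in capitals; the pair was chosen after the contacts were seen.
Fkbp5 element 1 (chr17:28557206-28557340): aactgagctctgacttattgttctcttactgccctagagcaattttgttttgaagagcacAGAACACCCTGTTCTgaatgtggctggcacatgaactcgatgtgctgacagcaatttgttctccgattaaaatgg
Fkbp5 element 2 (chr17:28579304-28579438): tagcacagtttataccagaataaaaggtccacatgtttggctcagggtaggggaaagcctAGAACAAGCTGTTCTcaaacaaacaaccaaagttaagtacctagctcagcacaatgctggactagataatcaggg
The fragment with the first element scored 5.99 with the Fkbp5 promoter at ZT0, was not listed at ZT6, scored 11.55 at ZT12 and 7.23 at ZT18. The fragment with the second scored 11.43 at ZT12 and was in none of the other lists. Across the whole comparison, gained contacts did not hold the element more often than kept ones: 22 of 31083 gained fragments (0.0708%) against 53 of 58626 kept ones (0.0904%).

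Turning from sequence to contacts, Fkbp5, whose product FKBP51 is a glucocorticoid-induced co-chaperone that holds back the glucocorticoid receptor, had 8, 9, 22 and 15 listed contacts at ZT0, ZT6, ZT12 and ZT18. ZT12 was the highest of the 4 timepoints and ZT6 was close to the lowest. The promoter kept 6 contacts, lost 3 and gained 16, of which 11 scored 7 or more. Of the gained contacts, 15 fell inside the gene, which spans 118.43 kb, while all 6 kept contacts and 2 of the 3 lost contacts were there too. A run of 6 adjoining fragments over 18.671 kb, about 75.222 kb from the bait, was contacted at ZT12 and not at ZT6. The highest score in this run was 14.2, and the highest of any Fkbp5 contact at ZT12 was 15.44, on a kept fragment next to the run that had scored 6.03 at ZT6. Toward the 3′ end of the gene the order was the other way for some fragments: 1 kept contact went from 11.1 to 8.48, and 2 fragments with ZT6 scores of 7.86 and 7.06 were not listed at ZT12. Counting any ZT6 contact within 10 kb as the same left a gain of 5 contacts, still past the limits of a call, but with contacted fragments within 10 kb merged into regions the difference was 0 and the call was lost.

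**Figure D1:**
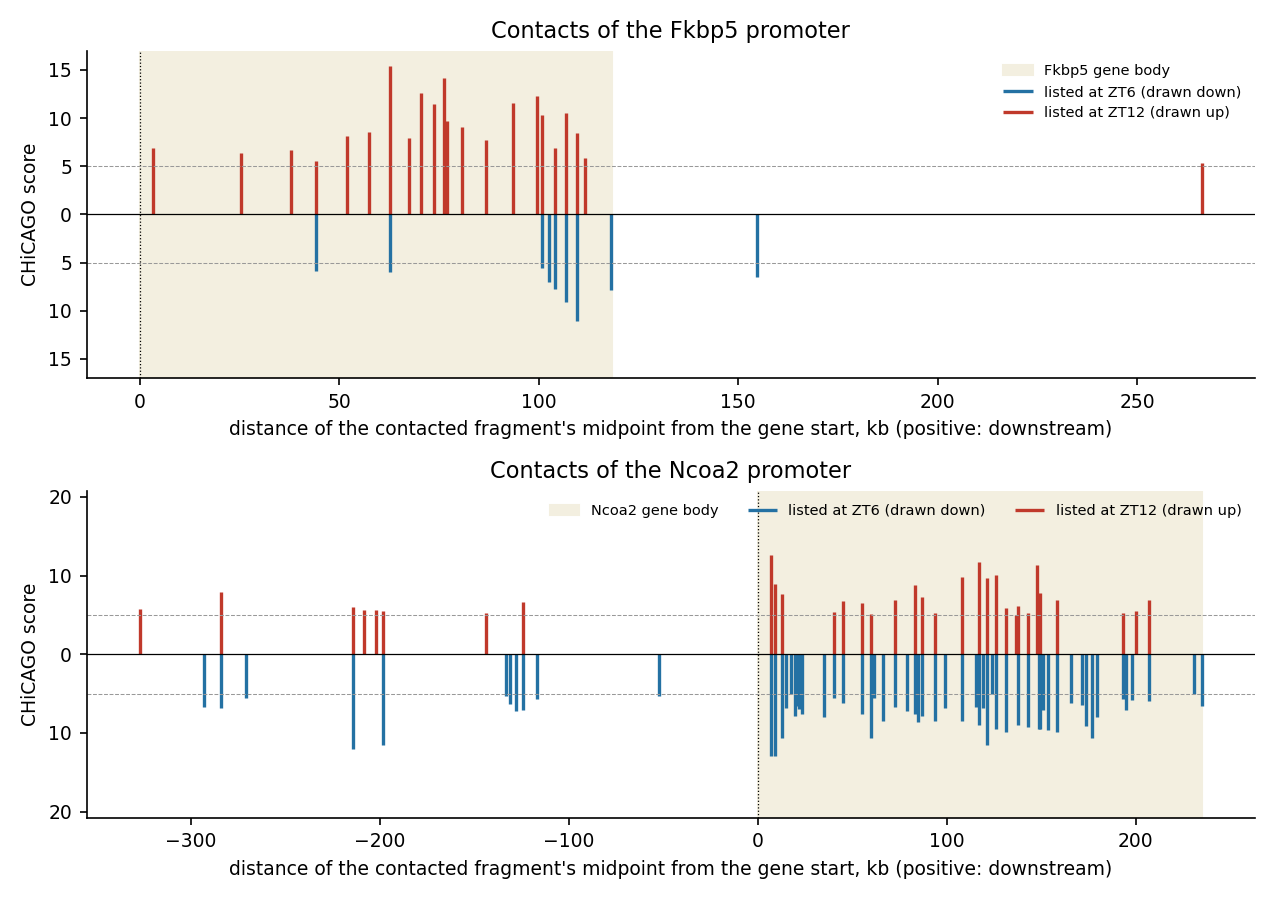
CHiCAGO scores of the fragments contacted by the Fkbp5 promoter (top) and the Ncoa2 promoter (bottom) against distance in kb from the start of the gene, drawn upward for ZT12 and downward for ZT6, with dashed lines at the list minimum of 5 and the gene body shaded. Fkbp5 gained 15 contacts inside its gene, and Ncoa2 lost 26 inside its own.

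The reverse was measured at Ncoa2, the gene of a coactivator of the glucocorticoid and other nuclear receptors. Its promoter had 33, 60, 34 and 23 contacts at the 4 timepoints, with ZT6 the highest. It kept 27, lost 33 and gained 7. Inside the gene, which spans 234.979 kb, 23 contacts were kept, 26 lost and 3 gained, and the lost ones included runs of 6 and of 5 adjoining fragments. The kept contacts also leaned down, with 19 of 27 scoring lower at ZT12 and a median difference of -1.14. With merged regions the difference of Ncoa2 was 0 as well.

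These contacts along a gene did not shift in 1 direction over the genome. Of 4262 promoters with any contact inside their own gene, 1216 had a net gain and 1109 a net loss, and 3405 such contacts were gained against 3556 lost and 11383 kept. The largest net gains after Sox6, a transcription factor gene with 19, were Atxn1 with 14 and Arid1b, Plcb1 and Fkbp5 with 13 each. Fkbp5 is the shortest of these, since the gene of Sox6 spans 567.401 kb and that of Plcb1 689.1 kb. The largest net losses were those of Ncoa2 (-23), Ubap2 (-15) and, with equal losses, the bicarbonate transporter gene Slc4a4 (-14) and Eepd1 (-14).

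Over all pairs, 106908 of 199396 (53.6%; 53.4 to 53.8) were kept, 47867 were lost and 44621 were gained. The lost pairs made 30.9% of the ZT6 list and the gained pairs 29.4% of the ZT12 list. Scores of kept pairs showed no common shift: the median difference was 0.01, 11330 pairs (10.6%) scored higher at ZT12 by at least 3 and 12004 (11.2%) lower. When an end within 10 kb of the other list's end counted as the same contact, 84.0% of pairs were kept, with 14348 lost and 12487 gained.

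Lost pairs spanned longer distances than gained pairs, and kept pairs were the shortest. The median distance was 200 kb for lost, 167 kb for gained and 131 kb for kept pairs. Pairs over 150 kb apart made 63.2% of lost (62.7 to 63.6), 54.7% of gained (54.2 to 55.1) and 43.9% of kept pairs. The same order held for pairs of score 7 or more, with medians of 235 kb for lost and 190 kb for gained ones. With the other reading of the lists the order of lost and gained was turned, at 180.0 and 186 kb, so it rests on the labels.

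**Figure D2:**
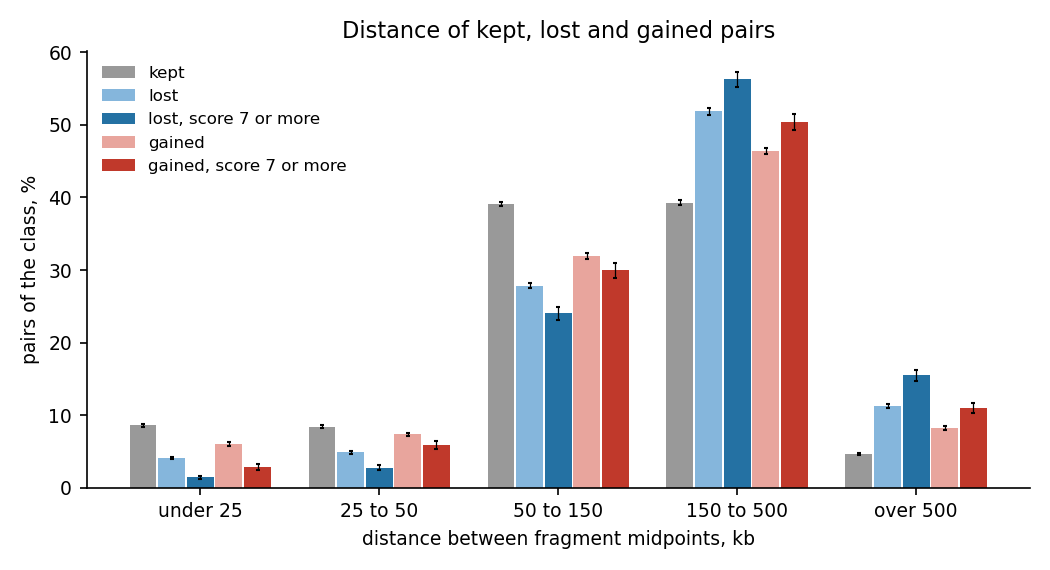
Share of pairs, in percent of each class, by distance in kb between fragment midpoints, for kept, lost and gained pairs and for lost and gained pairs of score 7 or more; error bars are 95% Wilson intervals. Lost pairs held the largest share over 150 kb, 63.2% for all and 71.8% for those of score 7 or more.

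Contacts between promoters were less common among lost pairs. Both ends were promoter fragments in 12.4% of lost (12.1 to 12.7), 16.2% of gained (15.9 to 16.6) and 16.6% of kept pairs. Among pairs of score 7 or more the shares were 15.8% of lost and 20.4% of gained. In promoter to non-promoter pairs the far end was intergenic in 37.3% of lost and 34.9% of gained pairs, and in an intron in 28.4% and 30.1%. The difference in promoter pairs shrank to 14.3% and 14.9% with the other reading of the lists.

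Of the 77247 pairs that scored 7 or more at ZT6, 8952 were absent from the ZT12 list, 11.6% of them. Of the 76144 such pairs at ZT12, 7635 were absent from the ZT6 list, 10%. Most lay next to a contact that was listed, since 78.5% of the lost and 81.3% of the gained strong pairs had a pair of the same promoter within 10 kb in the other list. Just inside the limit, 801 lost and 683 gained pairs scored from 7 to 7.1, and just outside it 744 lost and 690 gained pairs scored from 6.9 up to, but not including, 7. The share that was absent fell with the score, from 25.1% of ZT6 pairs and 23.1% of ZT12 pairs scoring from 7 to 8, to 0.557% (0.44 to 0.706) and 0.185% (0.122 to 0.28) of those scoring 15 or more. At ZT12, only 22 pairs of score 15 or more had no entry at ZT6, against 68 the other way.

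The ZT0 and ZT18 lists, which played no part in choosing the strong pairs, held many of them. At ZT0 the strong lost and strong gained pairs were listed about equally often, 52.2% (51.1 to 53.2) and 52.1% (51.0 to 53.2). At ZT18, 6 h into the dark, strong gained pairs were listed more often, 59.9% (58.8 to 61.0) against 49.8% (48.8 to 50.9). In both lists there were 33.4% of lost and 37.8% of gained strong pairs, and in neither 31.4% and 25.9%. Pairs of score 10 or more showed the same gap at ZT18, with 66.0% of lost and 76.6% of gained pairs listed there.

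The highest-scoring lost pairs joined different chromosomes. The Gm11399;Gm11400 bait at the start of chromosome 11 scored 595.14 at ZT0 and 578.99 at ZT6 with a fragment of chromosome 5 over Gm2420, and was not listed with it at ZT12 or ZT18. The neighbouring bait of Sfi1, a centrosome protein gene, scored 170.95 with the same fragment at ZT6. Both baits also scored with 1 fragment at the start of chromosome 18, 368.37 and 375.98 at ZT6 and again at ZT18, and at neither ZT0 nor ZT12. At each timepoint either both baits were listed with the chromosome 5 fragment or neither was, and so too with the chromosome 18 fragment. The same baits made 37 of the 56 lost, 17 of the 48 kept and 9 of the 23 gained pairs between chromosomes, and the highest of the 9 gained scored 12.98. Without pairs between chromosomes there were 8922 strong lost and 7622 strong gained pairs.

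Within chromosomes, the top lost pair linked the promoters of Dscr3 and Dyrk1a, a kinase gene, 45.4 kb apart, with a score of 51.88 at ZT6 and no entry at the other 3 timepoints. The Ugt1a1 promoter, whose product conjugates bilirubin, scored 27.92 at ZT6 with a short fragment over an exon of Hjurp, 53.4 kb away, and in no other list. That fragment was contacted by 3 promoters at ZT6, those of Ugt1a1, Heatr7b1 and Hjurp;Trpm8, and by 0 promoters at ZT0, ZT12 and ZT18. The Ugt1a1 promoter itself had 33, 38, 32 and 33 contacts and was not called.

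The top gained pairs joined a U6 spliceosomal RNA promoter fragment on chromosome 19 to neighbouring fragments over exons of Btaf1, a gene of the TBP-associated factor family, about 264 to 270 kb away. Their scores at ZT12 were 33.45, 30.35 and 22.84, and none was listed at ZT6. The 3 pairs were listed again at ZT18, with scores of 6.8, 10.41 and 7.8. The Snhg9 and Syngr3 promoter fragments, 37.2 kb apart, scored 23.79 at ZT12 and were in no other list.

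Counted by promoter, the change went both ways in nearly equal numbers. A promoter fragment was called gained or lost when its number of listed contacts, scaled to the total of each list, differed by at least 1.5-fold and the raw numbers by at least 5, among the 10418 of 18165 baits with at least 5 contacts at either timepoint. By this rule 654 promoters (6.28%) gained contacts toward ZT12 and 679 (6.52%) lost contacts. The median difference over all tested promoters was 0 contacts, with quartiles of -3 and 2. Of those called, 14 gained promoters had no listed contact at ZT6 and 35 lost promoters had none at ZT12, so that no fold can be given for them. The number called depended on what counts as the same contact: it was 166 gained and 214 lost with a tolerance of 10 kb, and 95 and 134 when contacted fragments within 10 kb were merged into regions.

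**Figure D3:**
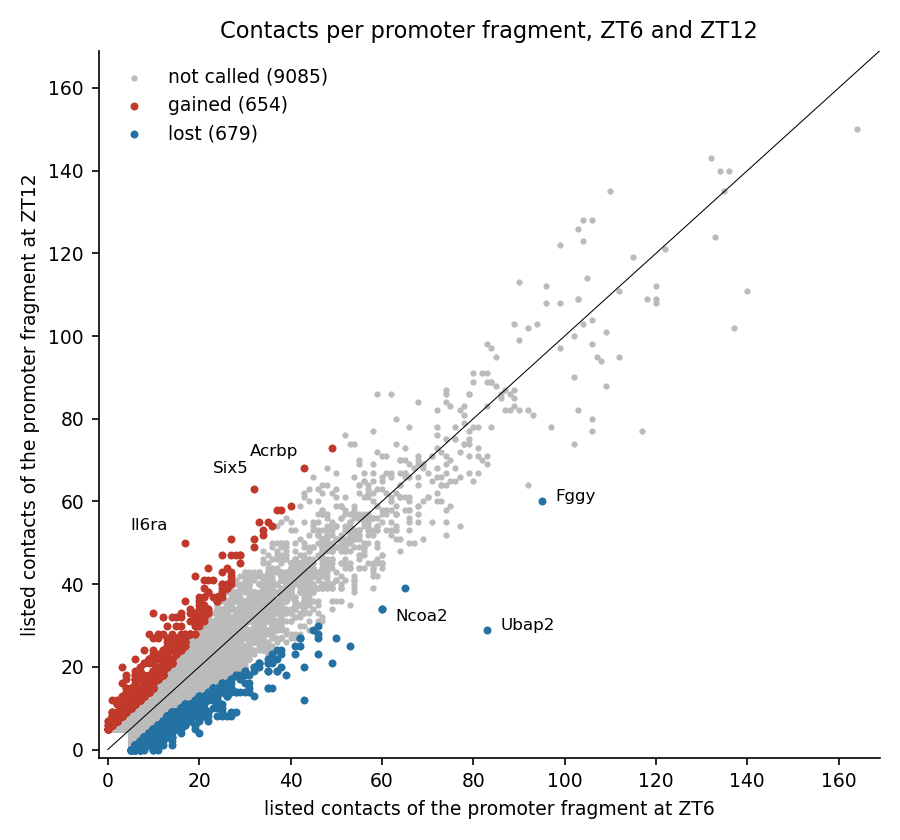
Listed contacts of each tested promoter fragment at ZT6 (horizontal axis) and ZT12 (vertical axis), with the line of equal numbers; 654 gained promoters are red, 679 lost promoters blue and the others grey. Il6ra, Six5 and Acrbp lie above the line and Ubap2, Fggy and Ncoa2 below it.

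The ZT0 and ZT18 lists gave a measure of the called promoters that was not used to call them. Of the gained promoters, 420 (64.2%) had more contacts at ZT18 than at ZT0, against 266 (39.2%) of the lost ones and 48.8% of all tested promoters. The median number of contacts of gained promoters was 10, 8, 14 and 12 at ZT0, ZT6, ZT12 and ZT18, and that of lost promoters 9, 14, 7 and 9. In the medians, ZT6 and ZT12 were the outlying timepoints and ZT0 and ZT18 lay between them. Calling promoters by the difference between ZT6 and ZT12 favours this order, so it is no separate result. Over all tested promoters the medians were 10, 11, 11 and 11 at ZT0, ZT6, ZT12 and ZT18.

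The promoters that gained were richer in G and C and lay among more genes than those that lost. The median GC content of the bait fragment was 50.3% for gained, 45.6% for lost and 48.0% for all tested promoters, and the median number of protein-coding gene starts within 500 kb was 23, 13 and 17. In the quintile of lowest GC, 69 of 2084 promoters (3.31%; 2.62 to 4.17) gained and 250 (12.0%; 10.7 to 13.5) lost contacts. In the quintile of highest GC, 217 of 2084 (10.4%; 9.17 to 11.8) gained and 63 (3.02%) lost contacts. The steps between were in order, and the middle quintile had 119 gained and 117 lost.

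Summed over promoters, the quintile of lowest GC held 18.3%, 19.1%, 17.1% and 17.2% of all contacts of tested promoters at ZT0, ZT6, ZT12 and ZT18, and that of highest GC 21.8%, 20.9%, 22.7% and 22.9%. The low-GC share thus dropped between ZT6 and ZT12 and stayed at ZT18, while the high-GC share did the reverse, and ZT0 lay between. Gene density gave a like but weaker gradient, with 113 gained and 220 lost in the sparsest quintile and 196 and 108 in the densest. The 2 properties go together; in promoters above the median of gene density, those above the median of GC content had 305 gained and 91 lost of 3077, and those below it had 101 and 157 of 2002. By length of the bait fragment the gradient was weaker, with 168 gained (8.06%; 6.97 to 9.31) and 115 lost in the shortest quintile and 117 gained (5.61%; 4.71 to 6.69) and 140 lost in the longest. The depth of the libraries was not analysed here, and its part in this gradient was not tested. With a tolerance of 10 kb the gradient remained, at 15 gained and 89 lost in the lowest quintile and 59 and 16 in the highest, but between the lists labelled ZT12 and ZT18 it was not seen, at 104 and 104 against 97 and 76.

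**Figure D4:**
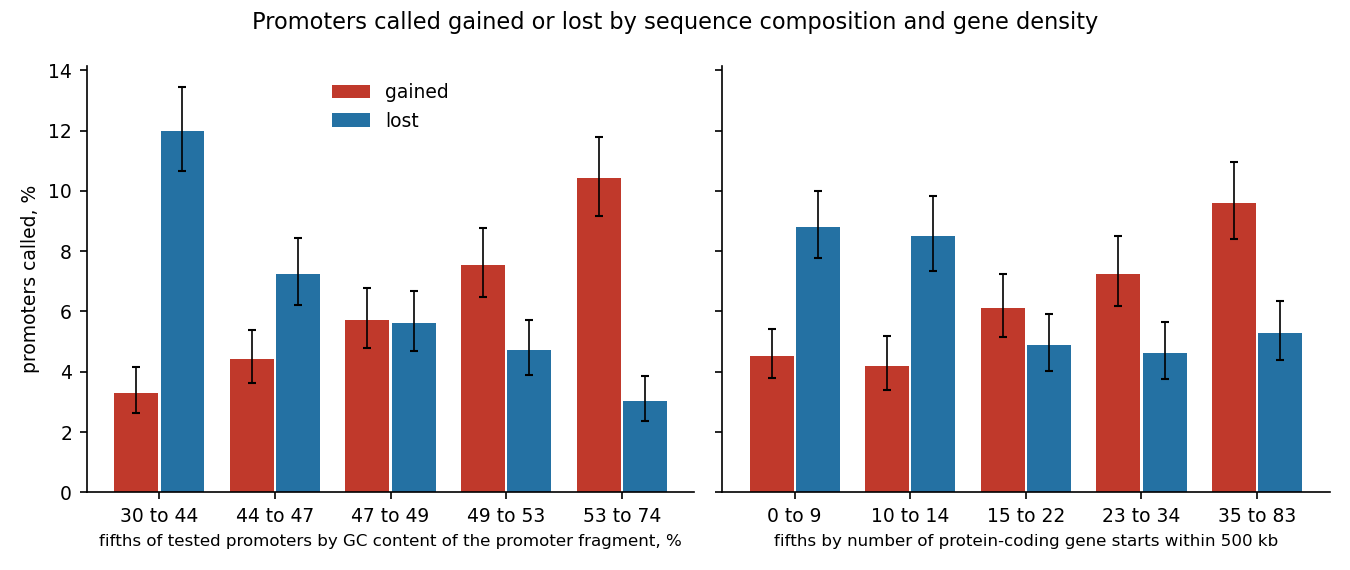
Percent of tested promoters called gained (red) and lost (blue) in quintiles of GC content of the promoter fragment (left, in percent) and of the number of protein-coding gene starts within 500 kb (right); error bars are 95% Wilson intervals for counting error only. Lost promoters fall from 12.0% to 3.02% and gained ones rise from 3.31% to 10.4% as GC content rises.

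By chromosome, the ratio of contacts at ZT12 to ZT6 per list total was lowest for X (0.914) and chromosome 13 (0.946), and highest for chromosome 17 (1.09) and chromosome 15 (1.05). Chromosome 17 had 41 gained and 20 lost promoters of 469, and X 7 and 16 of 169. Over all tested promoters 6.28% gained and 6.52% lost contacts.

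Several gene families lay on the losing side; they were picked after their values were seen and are given as counts, to be read beside the 6.28% gained and 6.52% lost of all tested promoters. Of the olfactory receptor promoters, genes known for the nose and not the liver, 2 gained and 27 lost of 174 tested, and their median GC content was 39.0%. The keratin and keratin-associated promoters, of genes of epithelia and hair, had 5 gained (8.06%) and 11 lost (17.7%) of 62, both above the background. They had 46 strong gained and 115 strong lost pairs. The Hist1 promoters, of replication-dependent histone genes, had 0 gained and 3 lost of 29, with 58 strong gained and 147 strong lost in the count over baits. U6 RNA promoters had 7 gained and 26 lost of 225, and snoRNA promoters 8 and 25 of 253. These families are clustered or low in GC, with family medians of 39.0% to 46.3%, against 48.0% for all tested promoters. Other families were counted too. Hox promoters, with a median GC content of 51.6%, had 1 gained and 2 lost of 24, with 26 strong gained and 22 strong lost in the count over baits. Zinc finger (Zfp) promoters (46.7%) had 6 gained and 15 lost of 174, and vomeronasal receptor promoters (36.6%) 0 and 2 of 6.

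Single fragments could be shared by many of these contacts. A fragment of 5734 bases between keratin genes on chromosome 11 made strong lost pairs with 6 promoters, those of Krt10, Krt23, Krt28, Krtap1-3, Krtap1-5 and Krtap3-1, and was contacted by 11, 16, 5 and 13 promoters at ZT0, ZT6, ZT12 and ZT18. ZT12 was the lowest of the 4 and ZT6 the highest. On the gaining side no fragment made more than 4 strong pairs, and the 3 that made 4 were short, of 157, 208 and 229 bases. A fragment of 2662 bases over an exon of Mafg, a small MAF transcription factor gene, was contacted by 4, 1, 9 and 8 promoters, and 3 of its gained pairs were strong, with Arhgdia, Npb and Fasn, the fatty acid synthase gene.

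The fragment of 229 bases is printed in full, because all its contacts of the comparison were gained. It lies in an intron of Sympk on chromosome 7, shown on the plus strand of mm9 with the bases left of the HindIII sites in capitals.
Sympk intron fragment (chr7:19631607-19631835): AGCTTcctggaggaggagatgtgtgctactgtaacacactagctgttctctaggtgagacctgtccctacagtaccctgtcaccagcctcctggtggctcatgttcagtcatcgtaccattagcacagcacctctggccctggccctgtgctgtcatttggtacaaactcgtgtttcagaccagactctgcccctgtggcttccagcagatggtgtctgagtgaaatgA
It was contacted by 3, 0, 8 and 2 promoters at ZT0, ZT6, ZT12 and ZT18. Its strong contacts at ZT12 were with Clasrp (9.16), Six5 (8.43), 1700058P15Rik (7.61) and Nova2 (7.5), and the others with Ercc1, Rsph6a, Tomm40 and Eml2;Gipr scored from 5.78 to 6.72. Distances ran from 9.19 kb to 668 kb.

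The largest gain was that of Il6ra, the gene of the ligand-binding chain of the interleukin-6 receptor, through which the liver mounts its acute-phase response. Its promoter on chromosome 3 (mm9, 89715951 to 89720151) had 36, 17, 50 and 33 contacts at ZT0, ZT6, ZT12 and ZT18, a 3.00-fold increase from ZT6 to ZT12 per list total. ZT6 was the lowest and ZT12 the highest of the 4 lists. All 16 kept contacts scored higher at ZT12, with a median difference of 2.54, and 34 contacts were gained and 1 lost. In the gene, an intron fragment of 309 bases was not listed at ZT6 and scored 13.14 at ZT12, and 4 kept fragments over exons scored higher, 1 of them 16.34 after 7.87. Further contacts were gained over Adar, She and Tpm3, on both sides of the promoter. With a tolerance of 10 kb the gain was 17 contacts and the call held, while with merged regions it was 3 and the call was lost.

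The promoter next to it went the other way. That of Atp8b2, a phospholipid flippase gene 48.1 kb from Il6ra, had 35, 42, 25 and 28 contacts and lost 19 while gaining 2. A U1 RNA promoter 5.82 kb from Atp8b2 had 21, 10, 33 and 28. Of 5012 pairs of neighbouring tested promoters within 50 kb of each other, 28 were called in opposite directions, 55 both gained and 25 both lost. In 586 pairs 1 promoter gained and the other was not called, in 465 pairs 1 lost, and in 3853 neither was called. Among all tested promoters 6.28% gained and 6.52% lost contacts, and the number of such pairs to expect from these shares was not tested. Other opposed neighbours were Wdr85 (30 to 16) and Mrpl41;Pnpla7 (16 to 28), and Ogg1, a DNA repair glycosylase gene (31 to 14), and Camk1 (10 to 16).

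Six5, a homeobox gene, had the second largest gain, with 37, 32, 63 and 58 contacts, and 18 of its 41 gained pairs were strong. It lies in a gene-dense stretch of chromosome 7, with 48 protein-coding starts within 500 kb, near Clasrp, a gene of an SR-type splicing protein, which had the most strong gained pairs, 20. Clasrp went from 110 to 135 contacts and was not called, since this is 1.25-fold, but 93 of its 107 kept contacts scored higher at ZT12, by a median of 6.46. The Tomm40 promoter, for the channel of the mitochondrial outer membrane, lies close to Clasrp and moved the opposite way, from 137 to 102 contacts with 22 strong lost pairs. Promoters of 1 gene-dense stretch thus held both the most strong gained pairs and nearly the most strong lost ones.

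The other large gains were spread over several chromosomes. Acrbp, the gene of an acrosome protein, had 62, 43, 68 and 56 contacts, and Tnni3, cardiac troponin I, had 40, 27, 51 and 49. Pex26, which anchors the peroxisomal import machinery, had 73, 49, 73 and 77, with 24 gained contacts and 0 lost. In these 3 the ZT6 list stood below the other 3, which were closer to each other. The serpin promoter Serpina3a;Serpina5, in a cluster of liver-secreted protease inhibitors, had 29, 19, 42 and 42. The 5033430I15Rik;Atxn1 promoter had 71, 33, 55 and 63 and gained 23 contacts inside Atxn1. In all 10 promoters with the largest gains, ZT6 was the lowest of the 4 lists. Ranking by the difference between ZT12 and ZT6 favours a low ZT6 number, so this is no separate result.

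The largest loss was that of Ubap2, a ubiquitin-associated protein gene on chromosome 4 (mm9, 41220635 to 41228888), with 41, 83, 29 and 50 contacts. It lost 56 contacts, 24 of them strong, gained 2, and 23 of its 27 kept contacts scored lower at ZT12, with a median difference of -2.57. Inside the gene 15 contacts were lost and none gained. When contacted fragments within 10 kb were merged, the Ubap2 promoter had 3 more regions at ZT12 than at ZT6, and the Acrbp promoter 2 fewer.

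Fggy, a carbohydrate kinase gene in a gene-poor stretch with 2 protein-coding starts within 500 kb, had 60, 95, 60 and 87 contacts. It lost 45 and gained 10, and 35 of its 50 kept contacts scored lower at ZT12. Cav1, caveolin 1, had 21, 43, 20 and 23. In both, ZT6 was the highest list, but for Fggy ZT18 was nearly as high. The other 6 of the 10 largest losses were of RNA genes or genes known only by a clone name: U6 promoters on chromosome 7 (16, 43, 12 and 18) and chromosome 12 (42, 53, 25 and 29), SNORA67, SNORA76, Gm15410 and 2410066E13Rik. In all 10 promoters with the largest losses, ZT6 was the highest of the 4 lists, which the ranking favours in the same way.

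**Figure D5:**
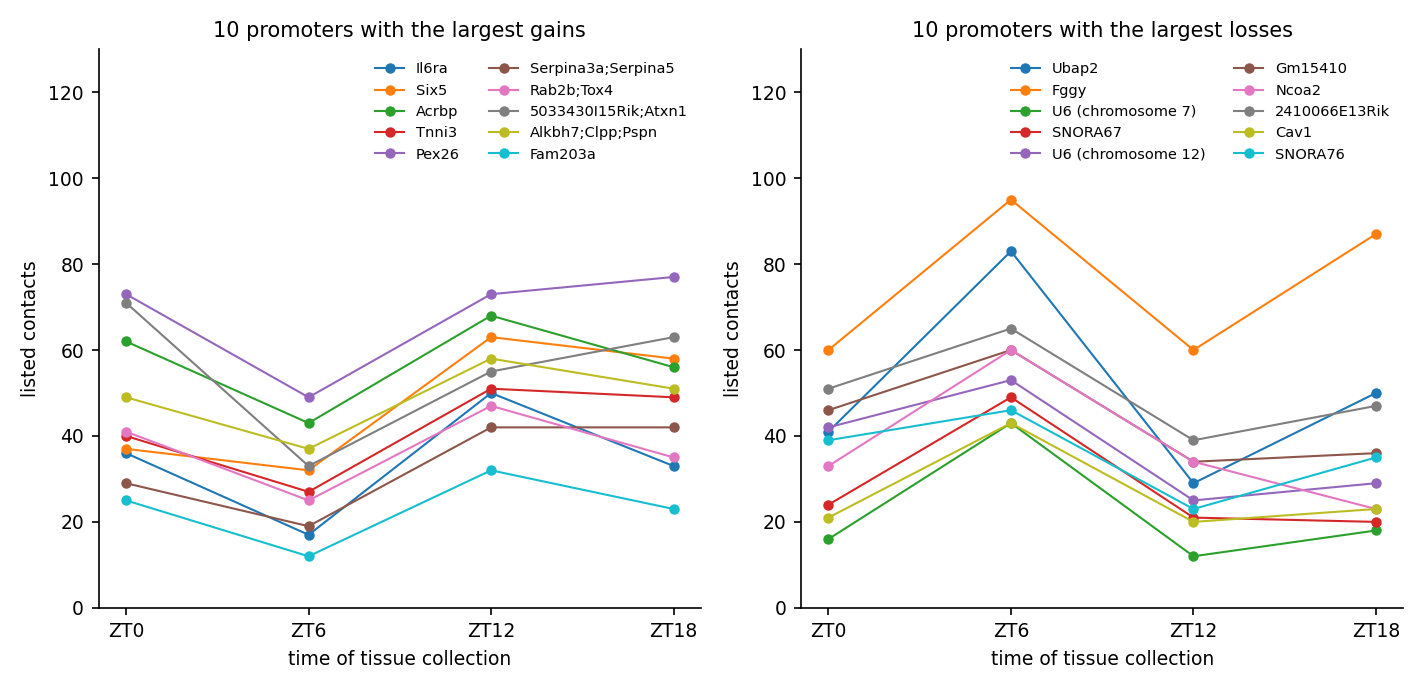
Listed contacts at ZT0, ZT6, ZT12 and ZT18 of the 10 promoters with the largest gains (left) and the 10 with the largest losses (right) from ZT6 to ZT12, 1 pooled list per timepoint. The gained promoters are lowest and the lost ones highest at ZT6, which their ranking by the difference between ZT6 and ZT12 favours.

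With a tolerance of 10 kb, 3 of the 10 largest gains were still called (Il6ra, Serpina3a;Serpina5 and Fam203a) and 0 of the 10 largest losses, although all 20 kept their direction. With merged regions 3 and 0 of these were called, and of all 48 called promoters picked by the naming rule 8 were. Zfp595, a zinc finger gene, went from 117 to 77 contacts with 16 strong lost pairs and was not called. Lamb2, the laminin beta 2 gene, had 28 contacts at ZT6, of which 17 were strong lost pairs, such as those with Rbm6 (21.94), 1700102P08Rik (20.22) and 4921517D21Rik (17.4). Only 4 of these 28 were listed with Lamb2 as the first fragment, against all 9 at ZT12, and by those alone Lamb2 rose by 5, so that its loss was seen from the other promoters.

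Among clock genes, the Period genes Per1 and Per2 gained, and Per3 was not called (6 to 4). The core clock list had 10 tested promoters, with 2 gained and 1 lost, where 6.28% and 6.52% of all tested promoters did so. Their median difference was 3.5 contacts (0 over all tested promoters). Summed over all 15 bait fragments of the list, tested or not, contacts went from 187 to 230. Those of Bhlhe40, which was not called, went from 106 to 128. Per1, whose protein represses CLOCK and BMAL1, had 5, 7, 19 and 12 contacts at ZT0, ZT6, ZT12 and ZT18. Per2, of the same function, had 9, 10, 19 and 13. Both were highest at ZT12 and lowest at ZT0. With a tolerance of 10 kb the Per1 gain was 6 and with merged regions 5, and its call held. The Per2 gain was then 3 and 1, and its call was lost in both. Per1 gained 13 contacts, of which those over Kdm6b, a histone demethylase gene 311 and 315 kb downstream, scored 8.3 and 9.24, and 5 of its 6 kept contacts scored higher.

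Cry2, a repressor that pairs with the Period proteins, was the clock gene called lost, with 5, 12, 7 and 7. Its difference of -5 lay at the limit of a call. The Cry2 difference was -1 with a tolerance of 10 kb and -1 with merged regions, and its call was lost in both. Bhlhe40, a repressor also called DEC1, had 108, 106, 128 and 113 contacts; this is not a call, but 14 of its 36 gained pairs were strong. Nr1d1 (10 to 9) and Npas2 (8 at both) were not called. Arntl, the BMAL1 gene, and Clock had 0 listed contacts at ZT6 and at ZT12, so nothing can be said of them here. The PAR bZIP output genes and their partners, such as Dbp (25 to 24), had 0 calls in 6, and the largest difference was that of Hlf (85 to 95).

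Of the glucocorticoid response genes, 3 gained and 1 lost of 12 tested, with a median difference of 1.5, beside 6.28% gained and 6.52% lost over all tested promoters. Beside Fkbp5, the gained ones were Dusp1, a phosphatase that turns off MAP kinases, with 38, 27, 40 and 36 contacts, and Klf15, a transcription factor of fasting metabolism, with 11, 10, 18 and 16. All 27 ZT6 contacts of Dusp1 were kept and 23 of them scored higher at ZT12. Irs2, an insulin receptor substrate, lost, with 27, 37, 22 and 27. With a tolerance of 10 kb the differences of Dusp1, Klf15 and Irs2 were 2, 4 and -4. With merged regions they were 1, 1 and -1, and none of these calls held either way. The receptor gene itself, Nr3c1, had 7 contacts at both timepoints, Tat, tyrosine aminotransferase, went from 7 to 11, and Tsc22d3 from 22 to 24, none of them a call.

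In cholesterol metabolism, 3 of 14 tested promoters gained and 0 lost (all tested promoters 6.28% and 6.52%), with a median difference of 1. Idi1, an isomerase of the mevalonate pathway, had 6, 4, 18 and 12 contacts, with 4 kept and all of them higher at ZT12, 14 gained and 0 lost. Its gained contacts lay mostly over and beside Larp4b, 193 to 290 kb downstream, and the highest was with the Larp4b promoter (10.02).

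In glucose metabolism, 2 of 8 gluconeogenesis promoters gained and 0 lost (all tested promoters 6.28% and 6.52%), and the median difference was 6. These were Slc37a4, the glucose-6-phosphate transporter, with 12, 4, 14 and 14 contacts, and Gpt;Mfsd3, which holds alanine aminotransferase, with 5, 7, 14 and 13. Foxo1 went from 96 to 112 and Pck1 from 10 to 13 without a call. Of 11 glycogen promoters, Gyg, glycogenin, gained (1 to 6), and Phkg2, a phosphorylase kinase subunit (7 to 2), and Stbd1, which tethers glycogen (26 to 13), lost; the median difference was -1.

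In insulin and growth hormone signalling, 4 of 18 tested promoters gained and 1 lost (all tested promoters 6.28% and 6.52%), with a median difference of 2. Those of Jak2 (20 to 32), Stat5a (5 to 11) and Socs2 (3 to 9), a kinase, a transcription factor and a feedback inhibitor of the growth hormone receptor, gained, as did Akt2 (4 to 9). Irs1, an insulin receptor substrate like Irs2, lost, with 43, 45, 29 and 39 contacts. The Jak2 gain did not hold when fragments within 10 kb were merged, where it had 1 region fewer at ZT12.

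In the other metabolic lists at most 1 promoter was called in each direction, beside 6.28% gained and 6.52% lost over all tested promoters. Bile acid synthesis and transport had 1 gained and 1 lost of 14, Abcc2, the canalicular anion transporter (4 to 9), and Abcb4, a phospholipid floppase (19 to 12), and Cyp7a1, the rate-limiting enzyme, had 15 and 16 contacts. Fatty acid oxidation and ketogenesis had 1 gained of 13, Ppara, the fasting nuclear receptor (9 to 17). Lipogenesis had 1 gained of 17, Lpin1, a phosphatidate phosphatase (4 to 10), while Elovl5, a fatty acid elongase, went from 106 to 80 without a call. Heat shock and temperature response had Rbm3, a cold-induced RNA-binding protein, gained (13 to 25) and Hspa8, a chaperone, lost (16 to 9) of 12. With merged regions none of the calls named in this paragraph held, and with a tolerance of 10 kb only those of Abcc2 and Rbm3 did. Xenobiotic metabolism had 0 calls in 10, and the largest difference was that of Nr1i2, the pregnane X receptor (15 to 22).

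A list of contacts holds no RNA levels, so that the tissue label could not be checked by expression, and the marker promoters are given as contacts only. Their calls stand beside 6.28% gained and 6.52% lost over all tested promoters. Hepatocyte markers had 0 calls in 8 tested promoters. All 11 hepatocyte bait fragments, tested or not, summed to 219 contacts at ZT6 and 214 at ZT12, Alb among them with 17 and 18. The largest differences were those of Ttr (63 to 57) and Tdo2 (24 to 18). Of the markers of other cells, 4 endothelial, 3 stellate, 5 cholangiocyte and 1 neuronal promoter had 0 calls, and the 1 tested Kupffer cell promoter, Cd68, gained (5 to 10). The largest differences among the uncalled ones were those of the endothelial Stab2 (7 to 9), Lyve1 and Eng (3 to 5 each), the stellate Col1a1 (10 to 8), the cholangiocyte Onecut1 (64 to 51) and the neuronal Slc17a7 (5 to 2). In whole liver, a change in the share of a cell type and a change in the contacts of its cells cannot be told apart.

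The circadian genes of the study were grouped by the time at which their RNA peaked. That list was chosen on RNA of the same experiment, so it is not independent evidence, and 10 promoter fragments with genes of 2 peak times were left out. Of 205 tested promoters peaking at ZT6, 22 gained (10.7%; 7.19 to 15.7) and 16 lost (7.80%; 4.86 to 12.3). Of 292 peaking at ZT12, 22 gained (7.53%; 5.03 to 11.1) and 13 lost (4.45%; 2.62 to 7.47). The intervals of both groups overlap each other and, except for gains at the ZT6 peak, hold the background shares of 6.28% and 6.52%. Their summed contacts went from 3565 to 3530 and from 5244 to 5356, and the median difference was 0 in each. For comparison, 13 gained (8.84%) and 4 lost of 147 peaking at ZT0. Of 121 peaking at ZT18, 14 gained (11.6%) and 6 lost. The interval of gains at the ZT18 peak began at 7.02%, so it too lay above 6.28%. That of gains at the ZT0 peak held 6.28%. The share of gains was thus above the background at every peak time, and not at the ZT6 peak alone, though the intervals at ZT0 and ZT12 held the background. The median GC content of the 4 groups was 49.0% to 50.2%, against 48.0% for all tested promoters. The part of GC content in these shares was not tested. Among ZT12-peaking genes the largest loss was that of Rrm2, a ribonucleotide reductase subunit, with 35, 50, 27 and 25 contacts.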

How the data were processed

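The authors mapped and filtered the read pairs with HiCUP on the mm9 build, pooled the libraries of a timepoint and ran CHiCAGO on them; what was deposited per pair is its 2 HindIII fragments and a CHiCAGO score, a weighted p-value on a shifted log scale, and only pairs of score 5 or more are listed. Versions are not given in the sources used here. The study gives read pairs per library, which were not used here, and the lists carry no read counts, so no depth stands beside a score.

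Pairs were matched without order of the ends, using Python 3.11.15 with pandas 2.3.3, numpy 2.4.6, scipy 1.17.1 and matplotlib 3.10.9. A bait is a fragment listed first at any timepoint, and its contacts are all pairs that hold it. Gene names and sequences came from the NCBIM37 (mm9) annotation and genome. Promoters with at least 5 contacts at ZT6 or ZT12 were tested for a change of 1.5-fold, scaled by list totals, and 5 contacts. Named promoters are the 10 largest gains and 10 largest losses and the 5 with most strong gained or lost pairs, at most 1 per 500 kb, the highest-scoring strong pairs, and the called members of the gene lists or else the member with the largest difference; other genes were named for their known role after their values were seen. Some members of the lists are counted but not reported here by name. The members and lists were chosen with earlier results of these data known. Call and matching steps were tested on simulated lists. The alternatives were score, matching tolerance, merging, fold, scaling, first-listed ends and list order.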

Additional observations from a re-analysis of the deposited data

How the results depend on the processing

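No paired analysis was possible because only 1 merged list per timepoint was analysed, and for the same reason leaving out a pool could not be run. The main limits are that each timepoint is 1 list, that a pair under score 5 is not listed, that a HindIII fragment next to a listed one counts as a different contact, and that the order of the lists rests on the labels. The cause of the changes below was not tested, except where the alternative's own construction sets them.

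With a score of at least 10 in both lists, 55.2% of pairs were kept, 10012 were lost and 9556 gained, and 161 promoters gained and 135 lost; circadian promoters peaking at ZT6 then had 7 gained and 4 lost, and those peaking at ZT12 had 9 and 2. Of the promoters called with all pairs, 36 of the 654 gained and 27 of the 679 lost were called again. With an end within 10 kb taken as the same contact, 84.0% of pairs were kept, 14348 lost and 12487 gained, 166 promoters gained and 214 lost, 1922 strong pairs were lost and 1431 gained, and strong lost and gained pairs were listed at ZT0 in 85.7% and 87.3%, which turned their order, and at ZT18 in 85.8% and 90.0%. With contacted fragments merged to regions, 95 promoters gained and 134 lost, and with a fold of 2 these were 310 and 337. With a strong score of at least 6, 20634 pairs were lost and 18544 gained, and with at least 10, 864 and 640; at that score 69.8% of lost and 66.9% of gained pairs were listed at ZT0, and 66.0% and 76.6% at ZT18. Median distances were 195 kb for lost and 162 kb for gained pairs by the gap between edges, and 235 and 190 kb for strong pairs. Promoter pairs were 11.6% of lost and 15.4% of gained pairs with baits of the same list only, and 15.8% and 20.4% of strong ones.

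With the other order of the lists, 55.6% of pairs were kept, 482 promoters gained and 446 lost, lost pairs spanned 180.0 kb and gained pairs 186 kb, a reversed order, and 14.3% of lost and 14.9% of gained pairs joined promoters; promoters peaking at ZT6 had 8 gained and 7 lost, and those peaking at ZT12 had 7 and 22. Here the list labelled ZT12 is the earlier one, so a promoter that is high or low in it tends to change sign by construction: 138 of the 654 gained promoters were called lost and 154 of the 679 lost ones gained. Of 48 called promoters picked by the naming rule, 35 changed sign. Among those reported by name, the difference became -17 for Il6ra, -12 for Acrbp and Rab2b;Tox4, -9 for Fam203a, -7 for Alkbh7;Clpp;Pspn, Fkbp5 and Per1, -6 for Idi1 and Per2, -5 for Six5, Abcc2 and Jak2, -4 for Dusp1 and Gyg, -3 for Akt2 and Stat5a, -2 for Klf15 and Tnni3, and -1 for Cd68 and Gpt;Mfsd3. It became 27 for Fggy, 21 for Ubap2, 12 for SNORA76, 11 for Phkg2, 10 for Irs1, 8 for 2410066E13Rik, 6 for Hspa8 and U6 on chromosome 7, 5 for Irs2, 4 for U6 on chromosome 12, 3 for Cav1 and Lamb2, and 2 for Gm15410. Other reversals were few: with merged regions -2 for Acrbp, -1 for Jak2, 3 for Ubap2, 2 for SNORA76 and 2 for Stbd1, with the 10 kb tolerance 1 for Stbd1, and from the first-listed end 5 for Lamb2. Taking the same number of top-scoring pairs or raw numbers kept the counts of pairs and promoters within 1.5 times and the call of 46 of the 48 promoters.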

Other observations

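Runs of adjoining fragments gained or lost by 1 promoter were also counted, from 5 fragments up. The longest in fragments, 7 each, were a lost run over 22.453 kb of Cabyr on chromosome 18, a gained run over 15.59 kb of the A730018C14Rik promoter on chromosome 12 and a lost run over 12.458 kb of SNORA76 on chromosome 8. Gained runs of 6 fragments included those of Shfm1 over 32.409 kb, Sall1, a developmental zinc finger gene, over 30.344 kb, Sh2d4a over 22.487 kb and the U1 RNA promoter next to Atp8b2 over 20.756 kb. Lost runs of 6 included those of Tomm40 over 24.965 kb and Ovca2 over 22.082 kb.

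Opposed neighbours also occurred in the keratin cluster, where Krtap29-1 went from 30 to 18 contacts and Krtap9-5, 27.8 kb away, from 5 to 10. Eno2, neuronal enolase, went from 38 to 24 contacts, and Lrrc23, 12.1 kb away, from 20 to 31.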
